A study of Mus musculus with 8 samples.

Results

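Cholesterol and fatty acid synthesis genes were examined in dorsal root ganglia (DRGs), where the somata of sensory neurons sit among satellite glia and Schwann cells, of a mouse model of Fabry disease. The genes were 32 named symbols, chosen as genes of sterol synthesis, of its control by the SREBP and LXR transcription factors, of fatty acid synthesis and of sterol transport, out of 34650 gene names with a probe on the array. All 32 were found by their symbol, on 46 probes, and all 46 probes were well above background on all 8 arrays. They comprised 8 genes of the mevalonate pathway, 10 of the steps from squalene to cholesterol, 5 of SREBP control, 3 of fatty acid synthesis and 6 of LXR control and sterol transport.

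Gene expression was profiled in lumbar DRGs L3 to L5 of male α-Gal A(-/0) mice, called FD here, and of male wildtype C57BL/6J mice, all between 20 and 24 weeks old. FD mice lack the lysosomal enzyme α-galactosidase A and are labelled C57BL/6J like the wildtype mice, and the labels give no other allele or treatment for either group. Each group had 4 samples, each pooled from the DRGs of 2 mice and hybridised to 1 of the 8 arrays of a single Agilent slide, which was scanned once. The 2 genotypes came from separate inbred colonies, so an effect of genotype and a difference between the colonies cannot be told apart.

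Cells make cholesterol from acetyl-CoA through mevalonate, the isoprenoids and squalene, and a series of enzymes then trims lanosterol to cholesterol. When sterols in the endoplasmic reticulum are scarce, SCAP escorts the SREBP transcription factors to the Golgi apparatus, where they are cut and released to activate these genes, whereas the INSIG proteins hold the complex back when sterols are plentiful. Oxidised sterols activate the LXR receptors, which turn on genes of sterol export and fatty acid desaturation, and myelinating glia are known for a high demand for both lipids.

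The promoters of 3 of the genes are shown because they hold matches to the motifs described next. They belong to the member called lower, to the member with the largest positive difference and to the only member with a match to the sterol element. Sequences are the 250 bases before the RefSeq gene start on the coding strand, build GRCm38.p6, with matches in capitals. They lie at chr9:42264301-42264550 on the minus strand for Sc5d, at chrX:8193513-8193762 on the minus strand for Ebp and at chr13:119690101-119690350 on the plus strand for Hmgcs1.
Sc5d: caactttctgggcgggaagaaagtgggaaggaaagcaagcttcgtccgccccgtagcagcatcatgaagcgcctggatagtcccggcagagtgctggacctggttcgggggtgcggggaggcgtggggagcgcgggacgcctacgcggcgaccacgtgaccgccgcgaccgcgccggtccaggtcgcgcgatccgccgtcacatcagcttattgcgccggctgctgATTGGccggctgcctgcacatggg
Ebp: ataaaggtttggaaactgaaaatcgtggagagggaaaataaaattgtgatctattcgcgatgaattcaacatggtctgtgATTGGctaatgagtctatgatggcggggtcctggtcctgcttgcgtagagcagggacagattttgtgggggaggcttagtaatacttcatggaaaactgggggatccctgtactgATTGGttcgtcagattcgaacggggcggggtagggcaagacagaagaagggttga
Hmgcs1: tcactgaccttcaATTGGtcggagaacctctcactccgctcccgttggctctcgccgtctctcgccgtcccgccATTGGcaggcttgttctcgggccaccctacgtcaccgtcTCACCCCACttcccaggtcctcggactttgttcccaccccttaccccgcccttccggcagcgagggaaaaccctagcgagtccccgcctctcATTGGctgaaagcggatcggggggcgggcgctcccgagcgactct

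The motifs searched on both strands were TCACNCCAC, the core of the sterol regulatory element bound by SREBPs, and CCAAT, the box bound by NF-Y. ATTGG is CCAAT on the opposite strand, and the 2 motifs share no match in the windows shown. Promoters were found for 25 of the 32 genes. TCACNCCAC was present in 1 of these, Hmgcs1 (4%), against 1.22% of all 27025 genes with a promoter and 1.05% of all 32851 windows of the same length. CCAAT was present in 20 of the 25 (80%), against 37.5% of all genes and 33.8% of all windows. Both genes called in the expression data, Sc5d and Tm7sf2, had a CCAAT match, at 24 and 47 bases before the start. A match is a description of the letters only.

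In FD DRGs 1 gene of the cholesterol chain, Tm7sf2, was called higher and 1, the late enzyme Sc5d, was called lower. Differences are given as log2 signal of FD minus wildtype, and a gene was called when its Benjamini-Hochberg adjusted p in limma, over all 29432 tested probes, was under 0.05. Each gene was represented by its brightest probe, whereas the shares of tested probes given beside the members count every probe, dimmer and repeated ones included. Tm7sf2 was the 1 member called higher (3.12% of members, against 1.96% of all tested probes), and Sc5d was the 1 member called lower (3.12%, against 1.11%). At an unadjusted limma p under 0.05, 9 members were higher (28.1%, against 10.7% of tested probes) and 1 was lower (3.12%, against 6.98%). The 4 FD samples lay above all wildtype samples in 7 members (21.9%, against 8.30%) and below them in 1 (3.12%, against 5.10%). The members were chosen with earlier results of these data known, so these shares are a description only. The median difference was 0.064 over the members and 0.019 over all tested probes, with 22 of 32 members and 16262 of 29432 tested probes positive, and the members had a range from -0.63 to 0.30.

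**Figure D1:**
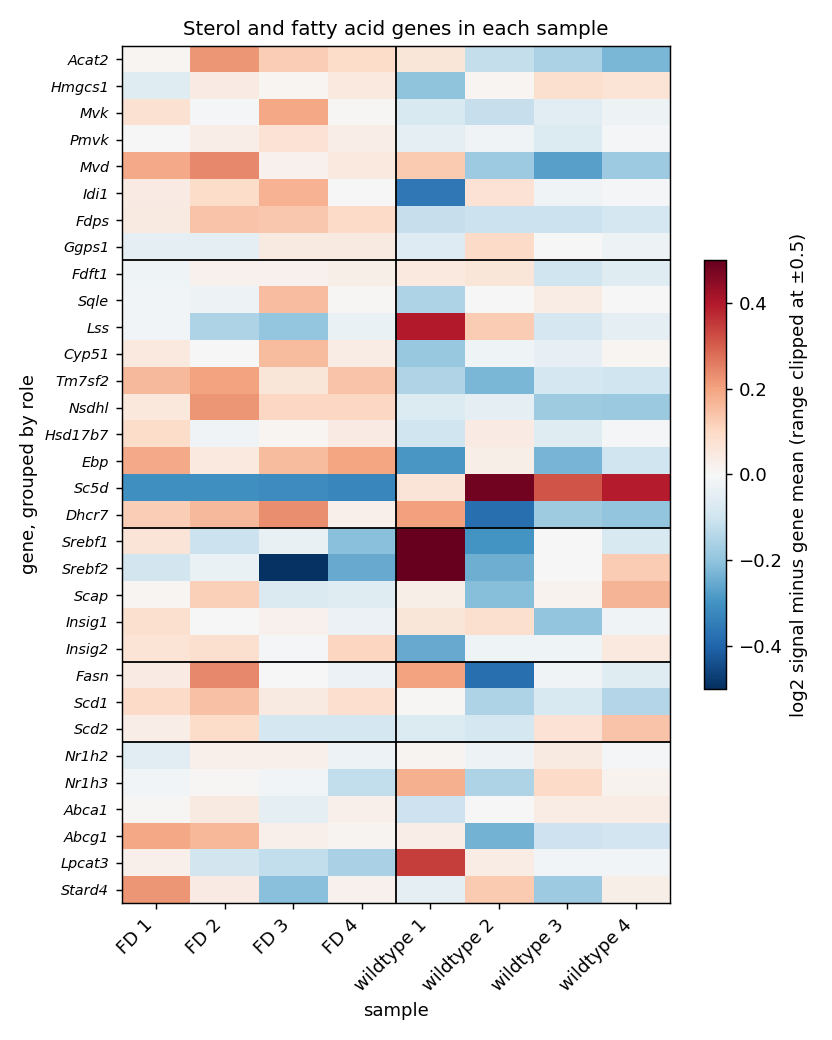
Log2 signal of each of the 32 genes (rows, grouped by role) in each of the 8 samples (columns), centred on the mean of the gene, with colour clipped at ±0.5. The 4 FD samples are pale red in most rows of the mevalonate and squalene groups and blue for Sc5d, and wildtype 1 stands out in Srebf1 and Srebf2.

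The plot of centred signals shows small positive offsets in FD in most rows of the mevalonate and squalene groups. In the mean log2 signal over the 8 mevalonate genes, FD samples lay between 13.70 and 13.76 and wildtype samples between 13.58 and 13.62, without overlap. Over the 10 genes from squalene to cholesterol the ranges were 12.31 to 12.34 and 12.24 to 12.31, so that the groups met at their edges. The median differences of the role groups were 0.142 for the mevalonate pathway, 0.096 for squalene to cholesterol, -0.006 for SREBP control, 0.121 for fatty acid synthesis and 0.001 for LXR control and sterol transport.

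**Figure D2:**
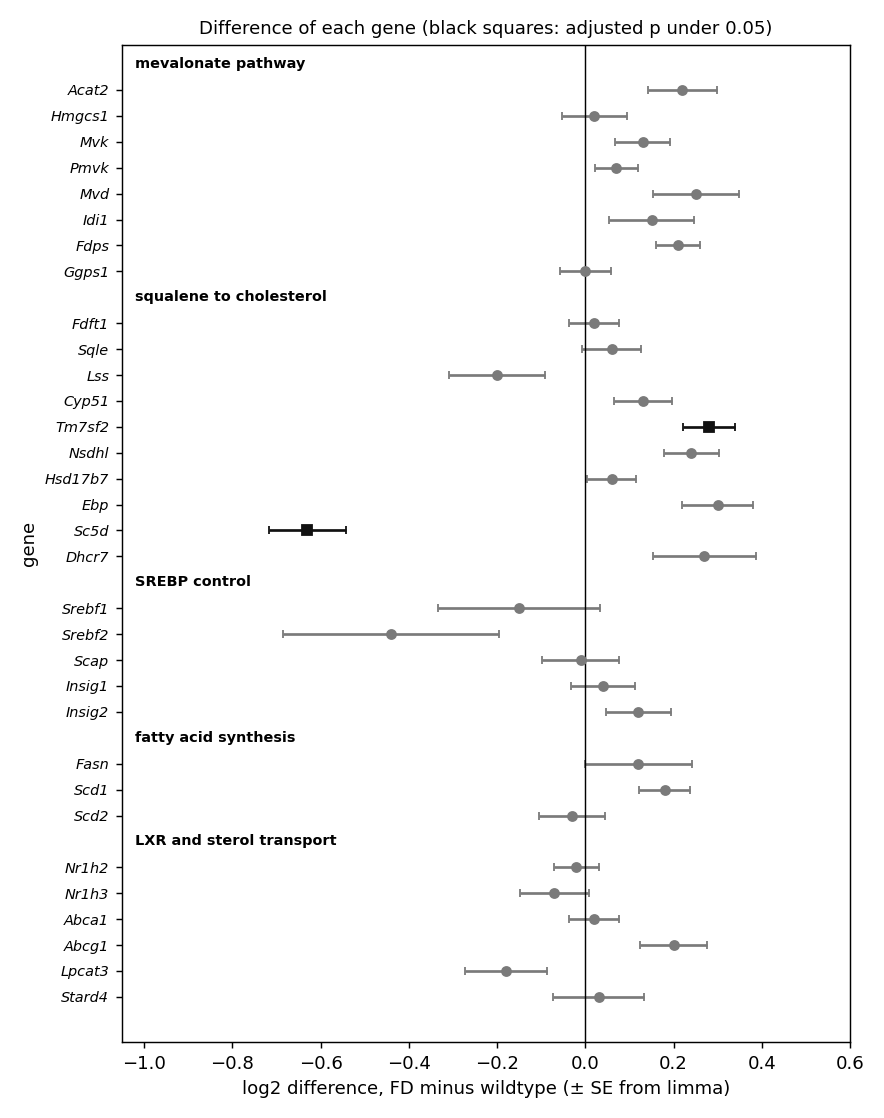
Log2 difference of each gene, FD minus wildtype, with the standard error from limma (n = 4 per group), by role. Black squares mark the 2 genes with an adjusted p under 0.05, Tm7sf2 at 0.28 and Sc5d at -0.63, and grey circles the other 30.

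Of the mevalonate genes, 7 of 8 had a positive difference, 3 had an unadjusted p under 0.05 and 0 were called in limma. Fdps makes farnesyl diphosphate, the branch point between sterols and protein prenylation. Its log2 signal was 15.77, 15.87, 15.86 and 15.82 in FD samples 1 to 4 and 15.61, 15.62, 15.62 and 15.64 in wildtype samples 1 to 4. All 4 FD samples were above the wildtype samples, which lay within a narrow band. The difference was 0.21 (SE 0.0495, unadjusted p = 0.00235, adjusted p = 0.0613 in limma), measured at chr3:88897549-88897608 (mm9). Mvd, which decarboxylates mevalonate diphosphate, had a log2 signal of 11.90, 11.95, 11.73 and 11.76 in FD and 11.84, 11.53, 11.44 and 11.53 in wildtype. Wildtype 1 lay among the FD samples and the other wildtype samples lay below them. The difference of 0.25 (SE 0.0974, adjusted p = 0.226 in limma) had an unadjusted p of 0.0306, and it was 0.34 without wildtype 1 (adjusted p = 0.0483 in limma) and 0.14 with the row of the slide as a block (unadjusted p = 0.146, adjusted p = 0.359 in limma). Acat2, a cytosolic thiolase that starts the chain from acetyl-CoA, stood at 10.25, 10.46, 10.36 and 10.33 in FD and 10.30, 10.12, 10.08 and 10.01 in wildtype. FD 1 lay below wildtype 1, and the remaining samples were apart. Its difference was 0.22 (SE 0.0787, unadjusted p = 0.0200, adjusted p = 0.186 in limma).

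On the brightest probes of Mvk and Pmvk, the kinases that phosphorylate mevalonate in turn, FD and wildtype samples did not overlap either. Neither of these probes reached an unadjusted p under 0.05 in the reported limma fit. Mvk ranged from 14.56 to 14.76 in FD and from 14.45 to 14.54 in wildtype (difference 0.13, adjusted p = 0.318 in limma). Its other probe gave 0.18 without overlap of the groups (unadjusted p = 0.0131, adjusted p = 0.15 in limma). Pmvk ranged from 14.81 to 14.88 in FD and from 14.74 to 14.80 in wildtype (difference 0.07, adjusted p = 0.524 in limma), and its other probe gave 0.00. Idi1, which isomerises isopentenyl diphosphate, differed by 0.15 with a 95% interval from -0.06 to 0.37. Hmgcs1, the synthase that supplies HMG-CoA and the carrier of the sterol element shown above, differed by 0.02 with an interval from -0.15 to 0.19, while its much dimmer other probe gave 0.17 (unadjusted p = 0.0486, adjusted p = 0.279 in limma). Ggps1, which makes geranylgeranyl diphosphate for protein prenylation, differed by 0.00 with an interval from -0.14 to 0.13.

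Among the 10 genes from squalene to cholesterol, 8 differences were positive, and the group held both called genes. Tm7sf2 encodes a sterol C14 reductase. Its log2 signal was 14.49, 14.53, 14.39 and 14.47 in FD and 14.18, 14.10, 14.24 and 14.23 in wildtype. Every FD sample was above every wildtype sample. Tm7sf2 rose by 0.28 (SE 0.0582, 95% interval 0.15 to 0.42, unadjusted p = 0.000972, adjusted p = 0.0388 in limma), which is 1.22-fold, at chr19:6062882-6062941 (mm9). A further probe for the gene gave 0.32 without overlap (adjusted p = 0.0770 in limma). The size of the difference kept between 0.26 and 0.33 over the 19 alternatives run, but the gene was called in 7 of them, with adjusted p from 0.0152 to 0.171, and in 0 of the 8 fits that left out 1 sample (0.0502 to 0.129).

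Sc5d, the sterol C5 desaturase that makes 7-dehydrocholesterol, was the only member called lower. Its log2 signal was 12.55, 12.55, 12.54 and 12.53 in FD and 12.92, 13.34, 13.17 and 13.25 in wildtype. The FD samples were nearly identical (SD 0.00679), the wildtype samples were scattered (SD 0.179), and the groups were far apart. Sc5d fell by 0.63 on the log2 scale (SE 0.0872, 95% interval -0.82 to -0.43, unadjusted p = 6.2e-05, adjusted p = 0.00691 in limma), which is 1.54-fold, at chr9:42062857-42062916 (mm9), the only probe for the gene. The call held in 18 of 19 alternatives and was lost in the methods' t-test, which does not share the spread over probes (adjusted p = 0.145).

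Sc5d also lay in a stretch of chromosome 9 in which other genes differed. Of 15 other tested gene or transcript names within 1 Mb, 4 had a called probe, against 808 of the 21003 tested gene names on the array (3.85%). Tecta, 75.5 kb away, differed by -0.54 (adjusted p = 0.0485 in limma) and Grik4, 265.7 kb away, by -0.32 (adjusted p = 0.0193 in limma), whereas Tbcel between them differed by -0.02. A transcript named only by its position, 761.9 kb to the other side, differed by 0.92 (adjusted p = 0.000259 in limma). Sorl1 was called by a probe other than its brightest, whose difference is not given here. The brightest Sorl1 probe gave 0.26 and was not called (adjusted p = 0.268 in limma). The DNA sequence of the 2 colonies at this stretch, and whether it matches the single Sc5d probe in both, was not examined here. Near Tm7sf2, 2 of 102 names had a called probe.

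**Figure D3:**
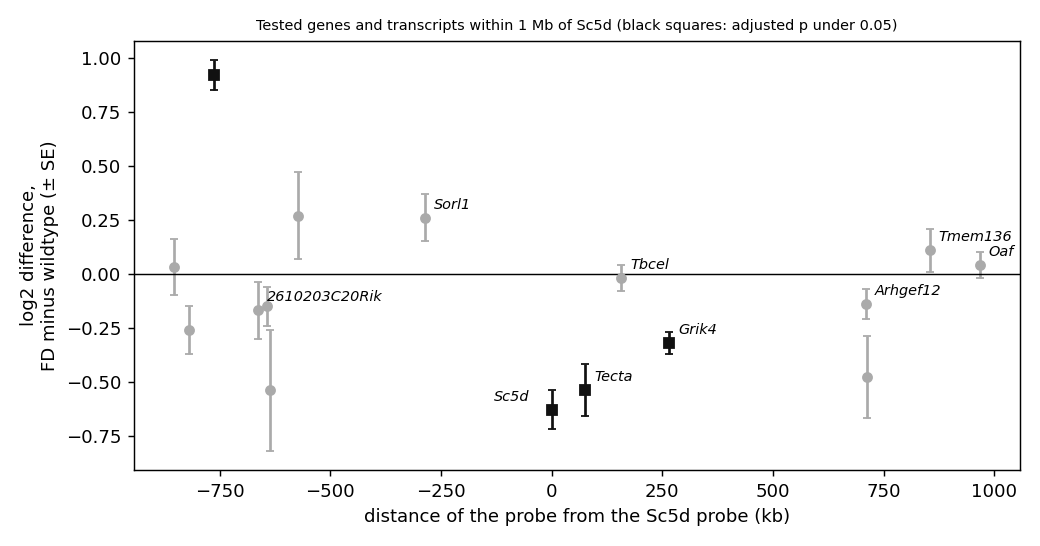
Log2 difference, FD minus wildtype (± SE), of the brightest probe of Sc5d and the 15 other tested genes or transcripts within 1 Mb, against the distance of the probe from the Sc5d probe in kb. Black squares have an adjusted p under 0.05 and comprise Sc5d, Tecta, Grik4 and an unnamed transcript, and points of both signs are interspersed with them.

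Of the other late enzymes, Ebp, Nsdhl and Dhcr7 had an unadjusted p under 0.05 without being called. Ebp, the sterol isomerase that precedes Sc5d in the chain, had the largest positive difference of the 32 genes. Its log2 signal was 14.16, 14.02, 14.13 and 14.17 in FD and 13.68, 14.00, 13.74 and 13.87 in wildtype. Groups did not overlap, but FD 2 and wildtype 2 were only narrowly apart. The difference was 0.30 (SE 0.0807, unadjusted p = 0.00546, adjusted p = 0.0977 in limma) at chrX:7762463-7762522 (mm9). Nsdhl, a dehydrogenase in the removal of the C4 methyl groups, stood at 11.74, 11.91, 11.79 and 11.79 in FD and 11.62, 11.64, 11.51 and 11.50 in wildtype. Here too the groups were separate, and the difference was 0.24 (SE 0.0623, unadjusted p = 0.00382, adjusted p = 0.0797 in limma), with 0.30 from the other probe. Dhcr7, which reduces 7-dehydrocholesterol to cholesterol and thus follows Sc5d, stood at 11.09, 11.13, 11.20 and 10.99 in FD and 11.17, 10.59, 10.79 and 10.77 in wildtype. Wildtype 1 lay among the FD samples, and the difference of 0.27 (SE 0.116, unadjusted p = 0.0461, adjusted p = 0.273 in limma) was 0.38 without it (adjusted p = 0.0390 in limma) and 0.12 with the slide row as a block (unadjusted p = 0.223, adjusted p = 0.452 in limma). Sc5d, measured by a single probe, lay below wildtype, whereas Ebp before it and Dhcr7 after it had positive differences that were not called. Lss, earlier in the chain, differed by -0.20.

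The 5 remaining genes of the chain did not pass either threshold with their brightest probe. Lss, which closes squalene epoxide into lanosterol, differed by -0.20, with a 95% interval from -0.44 to 0.05. Cyp51, the lanosterol demethylase, differed by 0.13 (interval -0.02 to 0.28). Fdft1, squalene synthase, differed by 0.02 (interval -0.11 to 0.15), Sqle, squalene epoxidase, by 0.06 (interval -0.09 to 0.21) and Hsd17b7, a ketosteroid reductase, by 0.06 (interval -0.06 to 0.19). A further probe of Hsd17b7 gave 0.23 without overlap of the groups (unadjusted p = 0.00609, adjusted p = 0.103 in limma).

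**Figure D4:**
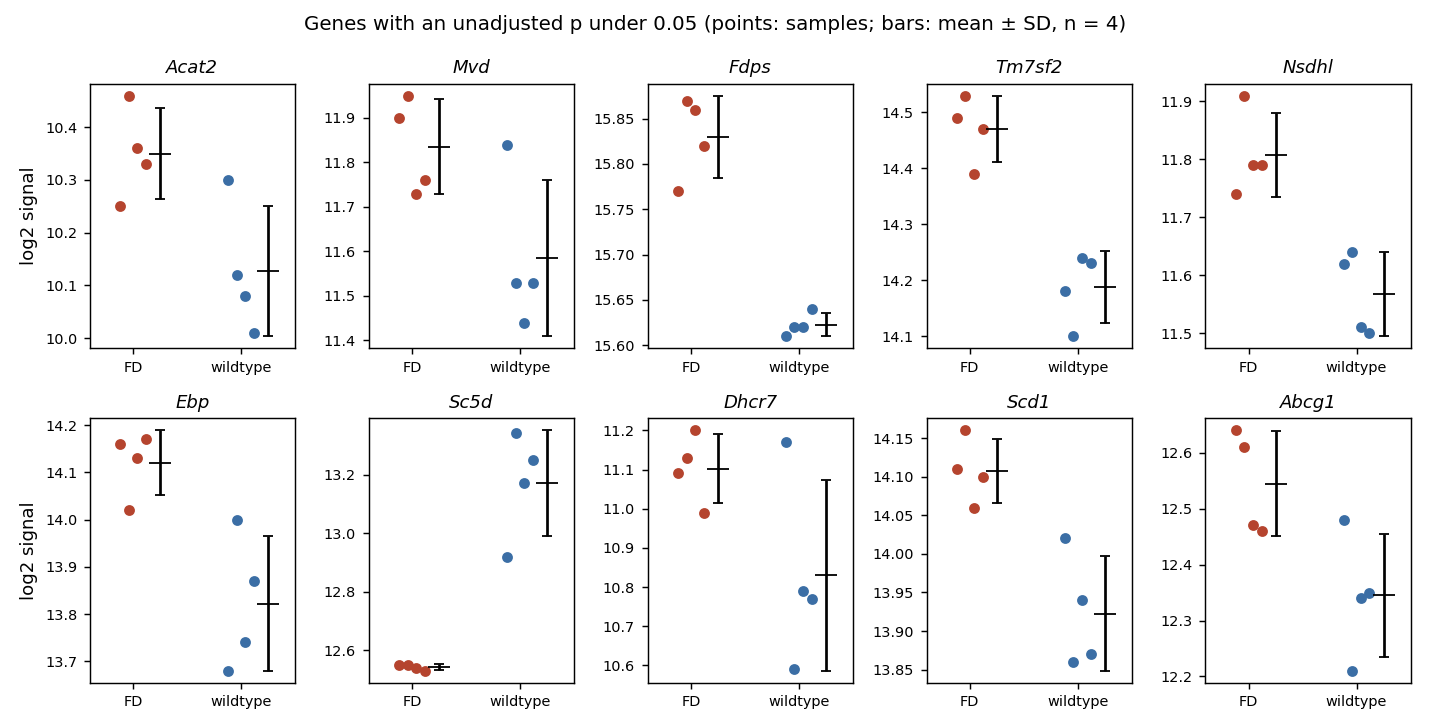
Log2 signal in each sample (points, with axes that do not start at 0) and mean ± SD (bars, n = 4) for the 10 genes with an unadjusted p under 0.05. Fdps, Tm7sf2, Nsdhl, Ebp and Scd1 are higher in all FD samples, Sc5d is lower in all of them, and in Acat2, Mvd, Dhcr7 and Abcg1 wildtype 1 lies within the FD range.

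In the plot of these 10 genes, wildtype 1 was the highest of its group for Acat2, Mvd, Dhcr7, Scd1 and Abcg1 and the lowest for Fdps, Ebp and Sc5d. Wildtype 1 also stood apart from the other samples over all probes, with a score of 31.2 on the component that holds 20.4% of the variance, and wildtype 2 did so on the opposite side, at -27.3, against -10.2 to 8.4 in the other 6 samples. It was the only wildtype sample in the upper row of the slide, which held 3 FD samples. Within a row, each difference rests on a group of 1 sample and has no test. In the upper and the lower row Sc5d differed by -0.37 and -0.72, Tm7sf2 by 0.29 and 0.28, Mvd by 0.02 and 0.26, Acat2 by 0.05 and 0.26 and Dhcr7 by -0.03 and 0.27. With the slide row as a block, Sc5d was still called (-0.55, adjusted p = 0.0240 in limma) and Tm7sf2 was not (0.29, adjusted p = 0.0727 in limma). Fdps, Nsdhl, Ebp and Scd1 kept an unadjusted p under 0.05 in that fit, whereas Acat2 (0.16, unadjusted p = 0.0905, adjusted p = 0.280 in limma) and Abcg1 (0.13, unadjusted p = 0.121, adjusted p = 0.326 in limma) lost it together with Mvd and Dhcr7. The slide row and wildtype 1 cannot be told apart in the upper row.

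None of the 5 genes of SREBP control reached an unadjusted p under 0.05 in the reported limma fit. With the slide row as a block 3 of them did, namely Srebf2 at -0.71 (unadjusted p = 0.0150, adjusted p = 0.130 in limma), Srebf1 at -0.39 (unadjusted p = 0.0275, adjusted p = 0.166 in limma) and Insig2 at 0.20 (unadjusted p = 0.0174, adjusted p = 0.138 in limma). Of the 19 alternatives, Srebf2 and Insig2 passed that p in 2 each and Srebf1 in 1. For Insig2 the other was normexp background correction (0.16, unadjusted p = 0.0496, adjusted p = 0.269 in limma). Srebf2, the SREBP that mainly drives cholesterol genes, had the largest difference of the group. Its log2 signal was 9.15, 9.21, 8.75 and 8.99 in FD and 10.24, 9.00, 9.24 and 9.37 in wildtype. Samples of the 2 groups overlapped and wildtype 1 was the highest by a wide margin. The difference of -0.44 (SE 0.244, adjusted p = 0.392 in limma) had a 95% interval from -0.99 to 0.12, it ranged from -0.71 to -0.18 over the alternatives, and a dimmer probe gave -0.05. Srebf1, the SREBP of fatty acid genes, differed by -0.15 (interval -0.56 to 0.27), or -0.39 to 0.05 over the alternatives, and wildtype 1 was again the highest, at 8.85 against 7.89 to 8.19 in the rest of its group. Scap, the escort protein, differed by -0.01 (interval -0.21 to 0.19) and Insig1 by 0.04 (interval -0.13 to 0.20). The probes of Insig2 disagreed in sign, at 0.12 for the brighter and -0.18 for the dimmer one.

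The 3 genes of fatty acid synthesis gave 1 gene with an unadjusted p under 0.05 and 0 called in limma. Scd1, a stearoyl-CoA desaturase, stood at 14.11, 14.16, 14.06 and 14.10 in FD and 14.02, 13.86, 13.94 and 13.87 in wildtype. The FD samples lay above the wildtype samples throughout. Its difference was 0.18 (SE 0.0575, unadjusted p = 0.0115, adjusted p = 0.141 in limma). Scd2, the related desaturase of neural tissue, lies close to Scd1 on chromosome 19 and differed by -0.03 with an interval from -0.20 to 0.14. Fasn, the fatty acid synthase, differed by 0.12 with an interval from -0.15 to 0.40.

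Among the 6 genes of LXR control and sterol transport, Abcg1, which exports cholesterol to lipoproteins, had the largest difference. Its log2 signal was 12.64, 12.61, 12.47 and 12.46 in FD and 12.48, 12.21, 12.34 and 12.35 in wildtype. Wildtype 1 lay just above the 2 lowest FD samples. The difference was 0.20 (SE 0.0751, unadjusted p = 0.0269, adjusted p = 0.213 in limma). Abca1, the companion exporter and also an LXR target, differed by 0.02 (interval -0.11 to 0.15). The receptors Nr1h2 and Nr1h3 differed by -0.02 and -0.07, Lpcat3, which remodels phospholipids, by -0.18 (interval -0.39 to 0.03, and -0.29 with the slide row as a block, adjusted p = 0.0899 in limma) and Stard4, a carrier of sterols in the cytosol, by 0.03.

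**Figure D5:**
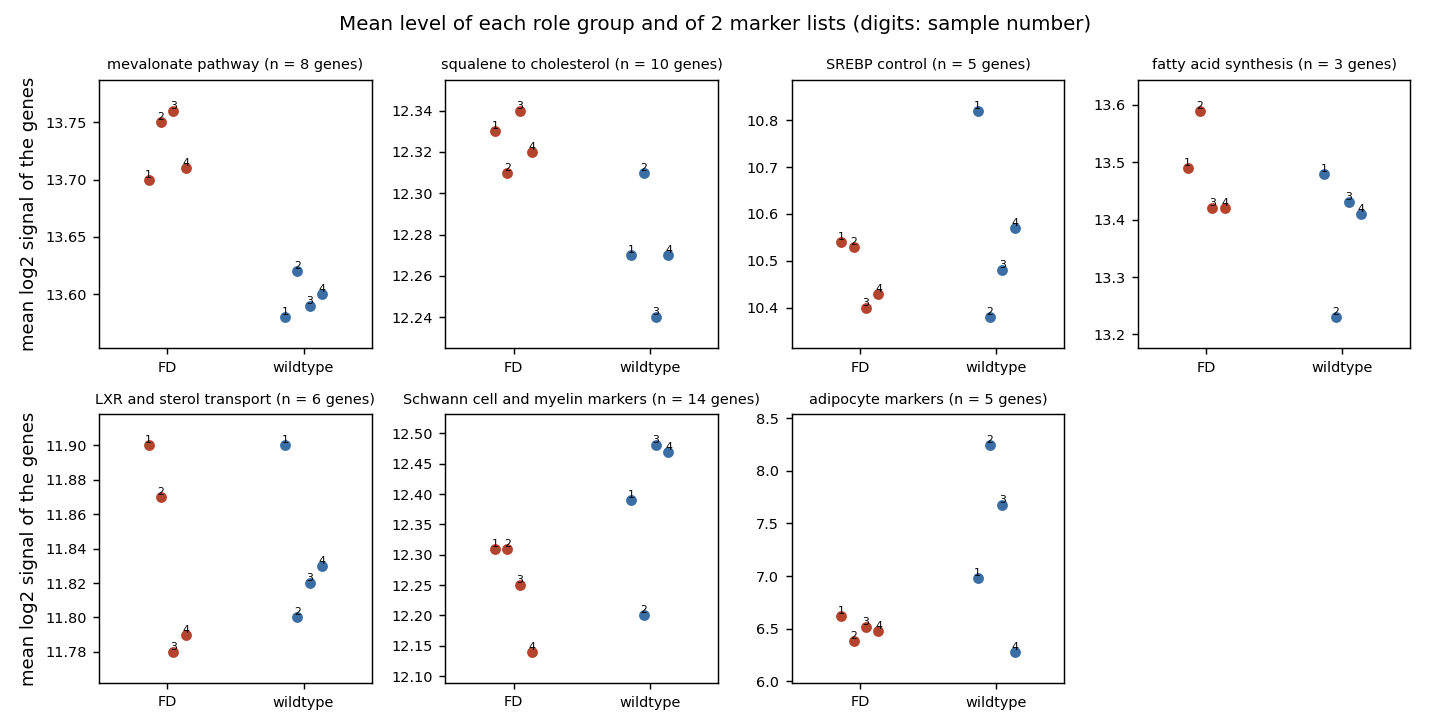
Mean log2 signal of the genes of each role group and of 2 lists of cell type markers in each sample (digits are sample numbers, axes do not start at 0). The FD and wildtype samples are apart in the mevalonate panel only, the groups overlap for the Schwann cell markers, and wildtype samples 2 and 3 are high in the adipocyte panel.

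Markers of other cell types are given beside these differences, as in the plot of group means. In a whole ganglion fewer cells of a type and less RNA per cell cannot be told apart. Markers of Schwann cells and myelin, a tissue rich in cholesterol, had negative differences for 14 of 14 genes (median -0.125, 0 called in limma and 4 with an unadjusted p under 0.05), with a mean level of 12.14 to 12.31 in FD and 12.20 to 12.48 in wildtype. The groups overlapped, with wildtype 2 below 3 of the FD samples. Mbp differed by -0.19 (adjusted p = 0.149 in limma). The 5 adipocyte markers measured of 10 all had negative differences (median -0.616, 0 called and 1 with an unadjusted p under 0.05), with means of 6.38 to 6.62 in FD and of 6.98, 8.24, 7.67 and 6.28 in wildtype samples 1 to 4. Wildtype 4 was thus below every FD sample. Of the defining markers, Lep was above background on 0 arrays, Adipoq and Plin1 on 2 and Cidec on 3. The part of either cell type in the differences of the sterol genes was not tested.

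Markers of the labelled tissue were present, with all 16 sensory neuron genes measured. Their median difference was -0.029, with 6 positive and 10 negative, and 3 were higher and 3 lower at an unadjusted p under 0.05 in limma. The called genes among them were 1 higher and 1 lower. Tac1 rose by 0.34 (adjusted p = 0.0493 in limma) and Snap25 fell by 0.47 on the log2 scale (adjusted p = 0.00443 in limma). Medians were -0.012 for 8 satellite glia genes, -0.102 for 10 macrophage genes, -0.095 for 10 fibroblast and meningeal genes, -0.128 for 9 endothelial genes and -0.600 for 4 red blood cell genes, with 0 called in each of these lists in limma. Differences were negative for 4 of 4 red blood cell genes (3 at an unadjusted p under 0.05), 8 of 9 endothelial genes (3), 9 of 10 fibroblast and meningeal genes (2) and 9 of 10 macrophage genes (1), while the macrophage gene Cd68 differed by 0.51 (adjusted p = 0.0573 in limma). Of 6 skeletal muscle markers 2 were measured (median -0.014, 0 called), and Ckm was above background on 0 arrays. The Gla probe, at chrX:131122895-131122954 (mm9), read 16.49 to 16.72 over all samples (adjusted p = 0.879 in limma). Where that probe lies relative to the disrupted part of the gene is not given in the sources used here, so it does not check the labels.

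Further genes of the same pathways are read against 1.96% of all tested probes called higher and 1.11% called lower. Of 9 other sterol synthesis and SREBP genes, all measured, 0 were called and 0 had an unadjusted p under 0.05 in limma (median 0.017), with Pgrmc1 at 0.11 and Mbtps2 at -0.08. Of 28 other genes of fatty acid synthesis and elongation, 27 were measured and 0 were called (median 0.022, 2 higher and 1 lower at an unadjusted p under 0.05). Elovl2, an elongase of long polyunsaturated fatty acids, differed by -0.25 (adjusted p = 0.183 in limma) and Acsl4, an acyl-CoA synthetase, by 0.17 (adjusted p = 0.255 in limma). Of 21 other genes of sterol storage, oxidation, uptake and export, 20 were measured, with 1 called higher and 0 lower (median -0.060, 7 positive and 13 negative, 2 higher and 3 lower at an unadjusted p under 0.05). That gene was Lipa, the lysosomal acid lipase that releases cholesterol from its esters, which ranged from 11.11 to 11.17 in FD and from 10.83 to 10.96 in wildtype and rose by 0.24 (SE 0.0526, adjusted p = 0.0484 in limma). Nceh1, another cholesteryl ester hydrolase, differed by 0.21 (adjusted p = 0.126 in limma). The 3 with a negative difference at that p, named here after their values were seen, were the transporters Abca7 at -0.27, Abcg4 at -0.31 and Abca3 at -0.16 (adjusted p = 0.173, 0.232 and 0.261 in limma).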

How the data were processed

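Values were taken from the scanner output of 8 one-colour arrays, whose deposited intensity values Agilent Feature Extraction 10.7.3.1 had corrected for background and for spatial trends. The authors also deposited log2 values made in GeneSpring GX 13.0 with quantile normalization. Their table held 38097 lines, 38061 of them array probes, and each column correlated at 0.9999 or more with its own array. That table was used as an alternative. Precision is limited by having 4 arrays per group.

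Of 62976 spots per array, 59305 were no controls. Spots marked as outliers (93 to 221 per array) were left out and 0 were saturated. Log2 processed signals were averaged per probe, and 55681 probes were quantile normalized between arrays with limma 3.58.1 in R 4.3.3. Tested were 29432 probes well above background on all 8 arrays, where at least 0.5 of the used spots of a probe had to pass. FD was compared with wildtype by limma's linear model with empirical Bayes, with Benjamini-Hochberg adjustment over all tested probes. The model was tested on simulated data. Names of the members and of the genes near them were taken from the file. For the other gene lists, names updated through RefSeq accessions, available for 28026 probes, were used as well. The scanner files place probes on mm9, where Hmgcs1 lies on an unplaced part of chromosome 13. Promoters came from RefSeq tables of GRCm38.p6.

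Per-sample values are given for members called, for members with an unadjusted p under 0.05 and for the member with the largest difference of each role group, and the others by difference and interval. From each further list the called genes and up to 2 genes with the smallest p may be named. The members and lists were chosen with earlier results of these data known. Genes of other cell types were listed as markers of Schwann cells and myelin, satellite glia, sensory neurons, macrophages, fibroblasts and meninges, endothelium, adipocytes, skeletal muscle and red blood cells. Sample labels number both groups from 1 to 4. Deviations of same-numbered samples from their group means correlated at 0.06, -0.25, -0.05 and -0.02, so the numbers were not taken to pair samples. The SD of the log2 difference between any pair of samples was at least 0.185, so no array appeared to repeat another.

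Alternatives were the methods' t-test (Welch), normexp background correction with an offset of 50, scaling to the 75th percentile, the deposited table, other filters on dim probes, outlier spots kept, array weights, the replicate number or the slide row as a block, the mean over the probes of a gene, and leaving out each sample.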

Additional observations from a re-analysis of the deposited data

Results flagged for a closer look

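Single samples were compared with the other 3 samples of their group for each of the 32 genes, which makes 64 groups, and chance alone would pick out about 1 in 20 groups. In 3 groups the gap of the outermost sample to its nearest neighbour was large against the range of the group. Sqle was high in FD 3 at a log2 signal of 15.19, against 15.01 to 15.04 in the other FD samples. Lpcat3 was high in wildtype 1 at 11.91, against 11.55 to 11.60. Nr1h3 was low in FD 4 at 9.47, against 9.58 to 9.60. None of these 3 genes was called in limma or had an unadjusted p under 0.05 in the reported fit. Lpcat3 had such a p in 2 of 19 alternatives, among them the replicate block (unadjusted p = 0.0439, adjusted p = 0.31 in limma). The cause of the gaps was not tested.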

How the results depend on the processing

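Over 19 alternatives the direction of Tm7sf2 and Sc5d did not change, while 11 of the 32 genes, none of them called in the setting concerned or in the reported fit, changed sign in at least 1. With 4 samples per group, small differences are at the limit of what the arrays can show, and 9 genes were called in at least 1 alternative. The number of members called higher, 1 as reported, was 0 in the methods' t-test, without a filter on dim probes, with the replicate block and with the slide row as a block, 2 with scaling to the 75th percentile (Tm7sf2 and Fdps) and 8 with array weights. Leaving out each sample in turn gave 0 to 2, where 2 came without wildtype 1 (Mvd and Dhcr7) and 1 without wildtype 2 (Ebp). The number called lower, 1 as reported, was 0 in the methods' t-test and 1 in the other alternatives, Sc5d each time. Members higher at an unadjusted p under 0.05 numbered 9, and 5 to 9 when a sample was left out, with 5 without FD 2 or without wildtype 3. Members lower at that p numbered 1, but 2 with the replicate block, 4 with the slide row and 1 to 2 when a sample was left out, with 2 without wildtype 2. The median difference of the members, 0.064, was 0.105 with 75th percentile scaling and 0.080 with the slide row, and 0.054 to 0.072 when a sample was left out.

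Tested probes called numbered 904, and 266 in the methods' t-test, 556 without a filter, 2102 with array weights and 284 with the replicate block. They numbered 414 to 1038 when a sample was left out, being 450, 414, 482 and 476 without FD 1 to 4, and 541 and 533 without wildtype 3 and 4. The replicate block left Sc5d called (adjusted p = 0.0477 in limma) and Tm7sf2 not (0.171). Same-numbered samples were not found to be paired, though their correlations cannot exclude it. Tm7sf2 was also not called in the methods' t-test, without a filter or with the slide row as a block. It was not called when any 1 sample was left out either. The cause of these shifts was not tested.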
